A study of Homo sapiens with 46 samples.

Results

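The genes described here are 10 members of the bone morphogenetic protein (BMP) pathway: the ligands BMP2, BMP4 and BMP7, the receptors BMPR1A and BMPR2, the inhibitory SMAD6, and the ID1, ID2, ID3 and ID4 genes. The rule picks them by symbol from 21183 genes in the transcript count tables assembled separately for each cell type, and it was set with earlier results of these data known. None of the 10 members was missing from more than a single one of the 4 tables, and 7 (BMP4, BMP7, BMPR1A, BMPR2, ID1, ID2 and ID3) were found in all 4. BMP2 and SMAD6 are not in the table of pluripotent cells and ID4 is not in the endoderm table. Those levels were not analysed here and were not read as 0.

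BMP ligands are secreted dimers that bring type I and type II serine/threonine kinase receptors together on the cell surface. The type I receptor then phosphorylates SMAD1, SMAD5 and SMAD9, which enter the nucleus with SMAD4 and bind DNA. ID genes and SMAD6 are among the best known direct targets. ID proteins hold basic helix-loop-helix factors in dimers that cannot bind DNA, and SMAD6 feeds back on the receptors and SMADs. In early embryos BMP signals favour mesoderm and extraembryonic fates, while their inhibition favours neural ectoderm.

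RNA was sequenced from H1, an established line of human embryonic stem cells (hPSC), and from ectoderm, endoderm and mesoderm cultures made from it, each split into cytoplasm, nucleus, nucleoplasm and chromatin. The 16 groups held 3 libraries each, except mesoderm nucleoplasm with 1, giving 46 libraries. H1 was kept in mTeSR1 on Matrigel. Ectoderm cultures received 2 µM each of dorsomorphin, an inhibitor of BMP type I receptors, A83-01, which blocks activin and TGF-β receptors, and PNU-74654, a WNT pathway inhibitor, with knockout serum replacement, and were collected after 5 days. Endoderm cultures received WNT3A and 100 ng/ml activin A in RPMI with 0.5% serum. Mesoderm cultures received 100 ng/ml BMP4, 100 ng/ml VEGF and 10 ng/ml bFGF, with 100 ng/ml activin A for the first 24 h. Added BMP4 was therefore part of the mesoderm protocol alone, and a BMP receptor inhibitor part of the ectoderm protocol alone. Nothing in the labels says that replicates were separate cultures, so p-values measure the spread between these libraries, which may be technical.

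The libraries held 4990408 to 21298678 counts. No 2 of the 45 replicate pairs held identical values. Marker genes followed the cell type labels in part. POU5F1, a pluripotency factor, averaged 2954 CPM (a gene's count scaled to the library total) in hPSC cytoplasm, 1765 in endoderm, 892 in mesoderm and 6.22 in ectoderm. Ectoderm cytoplasm held PAX6 at 203 CPM and endoderm cytoplasm held SOX17 at 158 CPM. Outside the cytoplasm some summed marker lists did not follow the labels. Ectoderm markers summed to 1383 CPM in mesoderm nucleus (3 of 7 genes in the table, NES alone at 1353 CPM) and to 1392 CPM in ectoderm nucleus (6 of 7). Mesoderm markers summed to 432 CPM in hPSC nucleus (4 of 7 genes, KDR alone at 426 CPM) and 215 CPM on hPSC chromatin, against 44.1 and 51.2 CPM in mesoderm (4 of 7). In endoderm (6 of 7 genes) they summed to 191 CPM in nucleus and 174 CPM on chromatin, also above mesoderm. In nucleoplasm the sum was 322 CPM in endoderm and 49.2 CPM in mesoderm. In cytoplasm it was 104 CPM in endoderm and 139 CPM in mesoderm. In mesoderm cytoplasm TBXT was near 0, at 0.132 CPM, HAND1 was at 132 CPM, and MIXL1, KDR and MESP1 had no row. The summed level of amnion and trophoblast markers there was 861 to 916 CPM, with all 7 listed genes in the table. It was 222 to 289 CPM in endoderm (5 of 7 genes), 28.3 to 34.3 CPM in hPSC (2 of 7) and 8.60 to 10.4 CPM in ectoderm (4 of 7). Its part in the results on mesoderm and endoderm was not tested. In bulk libraries, fewer cells of a type and less RNA per cell cannot be told apart.

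The fraction labels went against their controls in some cell types. Mitochondrial transcripts, which belong to the cytoplasm, took 13.9% of counts in libraries labelled hPSC nucleus and 0.515% in those labelled hPSC cytoplasm. The same order held in ectoderm (9.50% and 1.29%) and endoderm (11.6% and 0.436%), and the opposite one in mesoderm (1.26% and 6.79%). MALAT1, a nuclear RNA, was at 232 CPM in libraries labelled hPSC cytoplasm and 81.6 CPM in those labelled hPSC nucleus, while SNHG14, another listed nuclear RNA, was at 661 and 870 CPM. The list of nuclear RNAs as a whole summed to 896 CPM in hPSC cytoplasm and 952 CPM in hPSC nucleus. It was higher in the labelled cytoplasm in ectoderm (1919 against 270.3 CPM) and endoderm (592 against 317 CPM), and lower in mesoderm (682 against 1478 CPM). The 7 listed cytoplasmic RNAs summed to 61916 CPM in hPSC nucleus and 41554 CPM in hPSC cytoplasm. This sum was also higher in the labelled nucleus in ectoderm (80264 against 45637 CPM) and endoderm (52429 against 39076 CPM), and lower there in mesoderm (16331 against 66911 CPM). Fraction names below are therefore those of the labels, and comparisons between cell types within a fraction carry this difference, whose part in the results was not tested.

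BMP4, the ligand added to the mesoderm cultures as protein, had the widest range across cell types of the 7 members in all tables. Its cytoplasmic level was 4.08, 2.81 and 2.52 CPM in the 3 hPSC libraries and 36.7, 35.1 and 38.4 CPM in ectoderm. It was 149, 115 and 122 CPM in endoderm and 223, 198 and 217 CPM in mesoderm. No library of one cell type overlapped those of another. Relative to hPSC, cytoplasmic BMP4 rose 11.4-fold in ectoderm (log2 3.52, SE 0.16, edgeR adjusted p = 7.60e-11), 37.7-fold in endoderm (5.24, SE 0.16) and 67.6-fold in mesoderm (6.08, SE 0.16). Mesoderm was 5.91-fold above ectoderm (2.56, SE 0.13, edgeR adjusted p = 3.32e-10). The order hPSC, ectoderm, endoderm, mesoderm was also seen in the nucleus (3.03 to 4.23, 35.9 to 42.1, 130.0 to 139 and 201 to 218 CPM) and on chromatin (1.53 to 2.09, 28.9 to 36.3, 103 to 108 and 131 to 163 CPM). In nucleoplasm the single mesoderm library read 267 CPM and the endoderm libraries 187 to 193 CPM. The hPSC libraries held as few as 21 BMP4 counts, so the fold changes against them rest on small counts.

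BMP2, a close relative of BMP4, followed a different order. Its cytoplasmic level was 15.4, 11 and 14.2 CPM in ectoderm, 134, 114 and 90.8 CPM in endoderm, and 24.9, 20.2 and 17.8 CPM in mesoderm. Endoderm was thus above both other cell types in every library. In fits on 2 cell types, endoderm was 7.75-fold above ectoderm (log2 2.95, SE 0.15, edgeR adjusted p = 5.72e-09) and 4.81-fold above mesoderm (2.27, SE 0.14, edgeR adjusted p = 1.13e-08). Mesoderm was 1.58-fold above ectoderm in the cytoplasm (0.66, SE 0.13, edgeR adjusted p = 0.000677). Nuclear BMP2 was 22.5 to 25.8 CPM in ectoderm and 27.3 to 29.9 CPM in mesoderm, and on chromatin 14.8 to 26.7 and 16.2 to 19.0 CPM. Neither of these 2 differences passed the test, at -0.13 and -0.21 for mesoderm minus ectoderm (edgeR adjusted p = 0.409 and 0.480). The fitted nuclear value thus had the opposite sign to the CPM, in which every mesoderm library was above every ectoderm library. The endoderm level stayed between 110.0 and 153 CPM in the nucleus, nucleoplasm and chromatin.

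BMP7, which can pair with BMP2 or BMP4 in heterodimers, varied less than BMP4 between cell types. In the cytoplasm its level was 15.8, 16.2 and 21.4 CPM in hPSC and 36.1, 33.1 and 35.5 CPM in ectoderm. It was 46.5, 32.9 and 41.2 CPM in endoderm and 27.7, 25.2 and 27.2 CPM in mesoderm. The hPSC libraries were below all others, while ectoderm and endoderm overlapped. The rise over hPSC was 1.84-fold in ectoderm (log2 0.88, SE 0.14), 2.00-fold in endoderm (1.00, SE 0.14) and 1.44-fold in mesoderm (0.53, SE 0.14, edgeR adjusted p = 0.00331). Mesoderm was below ectoderm by a log2 difference of -0.36 (SE 0.13, edgeR adjusted p = 0.0291). That call was lost on leaving out ectoderm cytoplasm replicate 2 or 3, or mesoderm cytoplasm replicate 1 or 2, with adjusted p up to 0.0758, and in limma on TPM (-0.38, adjusted p = 0.111).

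Compared per length, on the authors' TPM scale, the order of the ligands was not the same in all cell types. In endoderm cytoplasm BMP4 averaged 86.0 TPM, BMP2 35.7 TPM and BMP7 12.5 TPM. In mesoderm BMP4 averaged 148 TPM, against 7.77 TPM for BMP2 and 7.75 TPM for BMP7. In hPSC BMP7, at 5.06 TPM, was above BMP4, at 2.05 TPM. In ectoderm BMP4 was at 25.7 TPM, BMP7 at 10.4 TPM and BMP2 at 4.82 TPM.

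**Figure D1:**
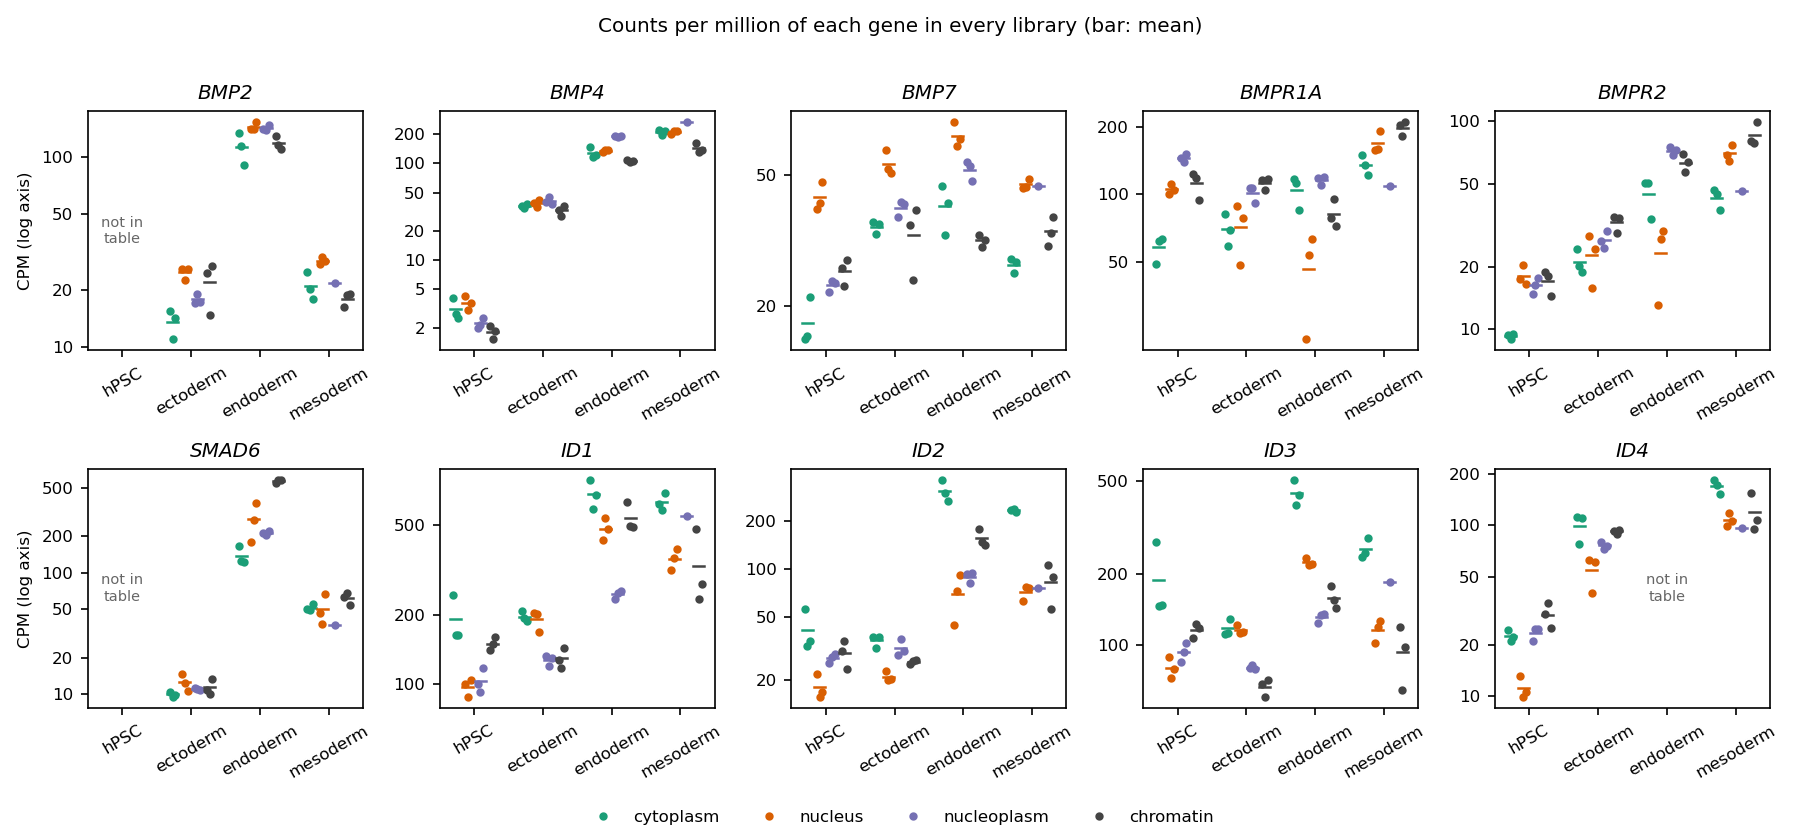
Level of the 10 members in CPM (log axis) in each library, by cell type and labelled fraction; points are libraries and short lines are group means, with no points where a member is not in a table. Cytoplasmic BMP4 runs from 2.52 to 4.08 CPM in hPSC to 198 to 223 CPM in mesoderm, and SMAD6 and BMP2 stand highest in endoderm.

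BMPR1A, a type I receptor for BMP2 and BMP4, was the more abundant of the 2 receptors in every cell type per length (11.8 against 1.37 TPM in hPSC cytoplasm and 27.5 against 4.65 TPM in mesoderm cytoplasm). Its cytoplasmic level was 48.6, 61.8 and 63.0 CPM in hPSC and 81.2, 58.6 and 69.1 CPM in ectoderm. It was 117, 113 and 84.9 CPM in endoderm and 151, 135 and 122 CPM in mesoderm. Ectoderm overlapped hPSC, and mesoderm lay above all other libraries. BMPR1A rose 2.25-fold in mesoderm (log2 1.17, SE 0.13, edgeR adjusted p = 1.75e-06) and 1.60-fold in endoderm (0.68, SE 0.13, edgeR adjusted p = 0.000435). Ectoderm differed from hPSC by 0.17 (SE 0.13, edgeR adjusted p = 0.237). With transcripts that carry an Ensembl identifier alone, that difference was -0.43 (edgeR adjusted p = 0.0226), and 13 of the 15 ectoderm isoforms of BMPR1A carry none.

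Outside the cytoplasm BMPR1A did not keep this order. Nuclear BMPR1A was 101, 111 and 105 CPM in hPSC but 22.4, 53.4 and 63.1 CPM in endoderm, a fall of 0.88 on the log2 scale (edgeR adjusted p = 0.00438) that missed the threshold in limma on TPM (-0.71, adjusted p = 0.0784). The lowest of these, endoderm nucleus replicate 1, was also the lowest for BMPR2. In nucleoplasm the endoderm rise of 0.16 (edgeR adjusted p = 0.0472) turned to -0.43 with scaling to total counts, and was lost on leaving out any 1 of 5 libraries (every one but endoderm nucleoplasm replicate 2). On chromatin mesoderm held 204, 182 and 211 CPM against 123, 119 and 94.6 CPM in hPSC, a rise of 0.93. With Ensembl transcripts alone that difference was -0.06.

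BMPR2, the type II receptor, was lowest in hPSC. The cytoplasmic libraries read 9.36, 8.96 and 9.49 CPM in hPSC and 24.3, 20.3 and 18.9 CPM in ectoderm. They read 50.4, 50.3 and 33.8 CPM in endoderm and 46.7, 44.9 and 37.4 CPM in mesoderm. Endoderm and mesoderm overlapped, and both were above ectoderm, which was above hPSC. The rise over hPSC was 2.15-fold in ectoderm (log2 1.10, SE 0.16), 4.29-fold in endoderm (2.10, SE 0.16) and 4.47-fold in mesoderm (2.16, SE 0.16). In limma on TPM the same differences were 0.60, 1.04 and 1.25, all past the threshold. In the nucleus the endoderm libraries read 13.2, 27.2 and 29.8 CPM and overlapped hPSC at 16.5 to 20.3 CPM. That rise of 0.69 (edgeR adjusted p = 0.0114) was lost without endoderm nucleus replicate 3 (adjusted p = 0.0544) or with total counts, and was -0.37 in limma on TPM.

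SMAD6, the inhibitory SMAD, separated the 3 cultures in which it was assembled. Its cytoplasmic level was 10.5, 9.43 and 9.91 CPM in ectoderm, 50.4, 49.2 and 55.5 CPM in mesoderm, and 168, 126 and 122 CPM in endoderm. No libraries overlapped. In fits on 2 cell types mesoderm was 5.29-fold above ectoderm (log2 2.40, SE 0.11, edgeR adjusted p = 1.31e-09), and endoderm was 12.9-fold above ectoderm (3.69, SE 0.14) and 2.39-fold above mesoderm (1.26, SE 0.12). On chromatin SMAD6 read 553, 579.6 and 585 CPM in endoderm, 63.3, 68.1 and 54.8 CPM in mesoderm and 10.9, 9.99 and 13.3 CPM in ectoderm. The endoderm to ectoderm ratio there was 58.5 (log2 5.87, SE 0.13, edgeR adjusted p = 1.06e-11). In endoderm the chromatin libraries were thus above all other SMAD6 libraries, the nuclear ones reading 181, 273 and 379 CPM and the nucleoplasmic ones 204 to 221 CPM. None of the 5 endoderm isoforms summed here carries an Ensembl transcript identifier, while 1 of 3 does in ectoderm and in mesoderm. The ratios with endoderm therefore compare different sets of assembled transcripts, and the fit on Ensembl transcripts alone cannot cover them. In cytoplasm minus nucleus, the endoderm isoforms tested differed by -1.77, -2.60 and -2.82 (called) and -0.15 (not called).

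The SMAD6 promoter is shown because of a short palindrome near its start. The 250 bases before the RefSeq start on the plus strand, chr15:66701986-66702235 (GRCh38.p14), are given 5′ to 3′, with capitals marking GTCTAGAC, the palindrome to which SMAD proteins bind, 12 bases before the start.
SMAD6: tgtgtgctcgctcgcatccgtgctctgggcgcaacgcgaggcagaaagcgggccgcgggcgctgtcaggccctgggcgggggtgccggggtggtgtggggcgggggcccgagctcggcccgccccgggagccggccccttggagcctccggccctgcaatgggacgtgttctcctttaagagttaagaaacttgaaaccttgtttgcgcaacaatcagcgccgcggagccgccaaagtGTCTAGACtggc
The letters GTCTAGAC occurred in 0.182% of 35116 RefSeq promoters of this length, on either strand. Of the 8 members with an entry in that table, SMAD6 alone held it. Of the other motifs searched, GGCGCC, for SMAD proteins with SMAD4, occurred in 16.4% of promoters and was found for BMP4 and BMPR2. CAGAC, a short SMAD-binding sequence, occurred in 38.0% and was found for BMP4, BMPR2, ID3 and ID4. A match is a description of the letters and not evidence of binding.

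ID1 was the most abundant ID gene per length in ectoderm, endoderm and mesoderm cytoplasm, at 333, 1031 and 965 TPM. Its cytoplasmic level was 246, 164 and 164 CPM in hPSC and 209, 195 and 189 CPM in ectoderm. It was 786, 584 and 677 CPM in endoderm and 617, 580.2 and 689 CPM in mesoderm. The endoderm and mesoderm libraries overlapped each other and lay above the other cell types, which also overlapped. ID1 rose 3.16-fold over hPSC in endoderm (log2 1.66, SE 0.16, edgeR adjusted p = 6.87e-07) and 3.17-fold in mesoderm (1.66, SE 0.16, edgeR adjusted p = 4.36e-07), and mesoderm was 3.26-fold above ectoderm (1.70, SE 0.16). Ectoderm, which received dorsomorphin, differed from hPSC by -0.04 (SE 0.16, edgeR adjusted p = 0.828), a value that changed sign with total counts (0.06), in limma on TPM (0.34) and without hPSC cytoplasm replicate 1 (0.17).

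In the nucleus ID1 followed another pattern. The ectoderm libraries read 205, 203 and 169 CPM, against 99.6, 87.2 and 104 CPM in hPSC. The groups did not overlap, and the rise was 1.06 on the log2 scale (SE 0.17, edgeR adjusted p = 9.50e-05). Endoderm read 428, 534 and 479.7 CPM, a rise of 2.68 (SE 0.17), and mesoderm 315, 356 and 392 CPM, a rise of 1.71 (SE 0.17). On chromatin ID1 in ectoderm (127, 118 and 143 CPM) overlapped hPSC (141, 149 and 159.9 CPM), while endoderm (631, 492 and 489 CPM) and mesoderm (477, 236 and 275 CPM) rose by 2.02 and 1.23.

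The promoters of ID1 and ID4 are shown because they are the ID genes among the members with a match to the TATA box letters TATAAA, which 10.7% of RefSeq promoters hold anywhere in a window of this length. They are the 250 bases before the start on the plus strand in GRCh38.p14, at chr20:31605039-31605288 for ID1 and chr6:19837120-19837369 for ID4. Capitals mark the matches to TATAAA on either strand. They also mark matches to CCAAT, here on the other strand. In ID4 they mark CAGAC too, a short SMAD-binding sequence.
ID1: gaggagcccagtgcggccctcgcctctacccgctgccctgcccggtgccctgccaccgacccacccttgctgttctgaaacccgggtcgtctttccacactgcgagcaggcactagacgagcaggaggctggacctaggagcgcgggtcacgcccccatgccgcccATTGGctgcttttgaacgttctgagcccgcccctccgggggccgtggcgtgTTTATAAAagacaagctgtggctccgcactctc
ID4: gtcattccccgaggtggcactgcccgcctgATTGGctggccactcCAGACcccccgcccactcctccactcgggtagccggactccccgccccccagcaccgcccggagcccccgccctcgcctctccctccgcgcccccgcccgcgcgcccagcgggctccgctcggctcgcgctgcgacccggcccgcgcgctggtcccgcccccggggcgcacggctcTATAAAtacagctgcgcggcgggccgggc
The TATAAA letters began 31 bases before the ID1 start, overlapping a match on the other strand, and 29 bases before the ID4 start. BMPR1A had a match on the other strand at 28 bases before its start. CCAAT occurred in 32.0% of promoters and CAGAC in 38.0%.

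ID2 rose in the same cultures as ID1. The cytoplasmic libraries read 56.4, 32.8 and 35.2 CPM in hPSC and 37.6, 31.9 and 37.6 CPM in ectoderm. They read 365, 302 and 271 CPM in endoderm and 235, 241 and 229 CPM in mesoderm. Ectoderm overlapped hPSC, and endoderm was above mesoderm in every library. The rise over hPSC was 6.75-fold in endoderm (log2 2.75, SE 0.17, edgeR adjusted p = 4.61e-09) and 5.51-fold in mesoderm (2.46, SE 0.17, edgeR adjusted p = 1.00e-08). Ectoderm differed by -0.29 (SE 0.17, edgeR adjusted p = 0.126), and by 0.04 in limma on TPM. In the nucleus the rise was 2.28 in endoderm (44.4, 73.0 and 92.5 CPM against 21.8, 15.6 and 16.9 CPM in hPSC) and 1.82 in mesoderm (62.7, 76.8 and 75.6 CPM).

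ID3 fell in ectoderm cytoplasm, where ID1 and ID2 did not pass the test. Its level was 274, 147 and 148 CPM in hPSC, where replicate 1 stood apart, and 111, 113 and 129.7 CPM in ectoderm. It was 503, 393 and 434 CPM in endoderm and 236, 245 and 285 CPM in mesoderm. All ectoderm libraries were below all hPSC libraries, endoderm was above all others, and mesoderm overlapped hPSC. The fall in ectoderm was -0.76 on the log2 scale (SE 0.20, edgeR adjusted p = 0.00302), and -0.41 without hPSC cytoplasm replicate 1. The rise in endoderm was 2.08-fold (1.06, SE 0.20, edgeR adjusted p = 0.000440). Mesoderm differed from hPSC by 0.38 (SE 0.20, edgeR adjusted p = 0.103), which passed the threshold in limma on TPM (0.66, adjusted p = 0.00188), and was 2.21-fold above ectoderm (1.14, SE 0.20, edgeR adjusted p = 0.000173).

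The direction of the ID3 difference in ectoderm depended on the fraction. Nuclear ID3 was 122, 113 and 115 CPM in ectoderm and 89.1, 72.5 and 79.3 CPM in hPSC, a rise of 0.61 (edgeR adjusted p = 0.00688) that was 0.27 in limma on TPM (adjusted p = 0.165). On chromatin it was 68.8, 60.3 and 71.1 CPM in ectoderm against 108, 123 and 119 CPM in hPSC, a difference of -0.80 (edgeR adjusted p = 0.00111), or -0.53 in limma on TPM (adjusted p = 0.0843). In neither fraction did the libraries overlap.

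ID4, which is highly expressed in neural progenitors, rose in ectoderm. Its cytoplasmic level was 24.3, 21 and 22 CPM in hPSC, 111, 77.3 and 109 CPM in ectoderm, and 184, 171 and 152 CPM in mesoderm. The 3 cell types did not overlap. In fits on 2 cell types the rise over hPSC was 4.08-fold in ectoderm (log2 2.03, SE 0.14, edgeR adjusted p = 7.84e-07) and 7.18-fold in mesoderm (2.84, SE 0.10, edgeR adjusted p = 1.46e-07), and mesoderm was 1.74-fold above ectoderm (0.80, SE 0.10, edgeR adjusted p = 1.11e-05). The rise in ectoderm was also called in the nucleus (2.35), nucleoplasm (1.61) and chromatin (1.65), and that in mesoderm in the nucleus (3.08) and chromatin (2.11). On chromatin ectoderm (92.7, 89.0 and 93.5 CPM) lay below mesoderm (155, 94.6 and 108 CPM), a difference that did not pass the test.

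Counted over the 7 members in all 4 tables, the cytoplasm showed 4 changes in ectoderm against hPSC (3 higher and 1 lower), 7 in endoderm (all higher), 6 in mesoderm (all higher) and 7 between mesoderm and ectoderm (6 higher in mesoderm). Of all genes tested, 75.9%, 58.1%, 68.0% and 61.2% were called in these 4 comparisons, so the share of members called was below that of all genes in ectoderm and above it in endoderm. Genes called higher made up 38.0%, 29.6%, 34.6% and 32.4% of all tested, and genes called lower 37.9%, 28.6%, 33.4% and 28.7%. The median log2 difference of the 7 members was 0.17 in ectoderm, 1.66 in endoderm and 1.66 in mesoderm, against 0.01, 0.00 and 0.00 over all genes tested. The comparisons with hPSC share the hPSC libraries. In the nucleus 3, 7 and 4 members were called in ectoderm, endoderm and mesoderm against hPSC, and 6 between mesoderm and ectoderm, where 57.6%, 57.4%, 54.0% and 66.0% of all genes were. In nucleoplasm 6 members were called in ectoderm and 7 in endoderm (79.5% and 77.1% of all genes). On chromatin 3, 6 and 6 were called against hPSC (62.9%, 61.8% and 54.5%) and 6 between mesoderm and ectoderm (49.0%). Of 28 comparisons of BMP2, SMAD6 and ID4 in fits on 2 cell types 25 were called. In those fits the share of all genes called in the cytoplasm was 73.2% for ectoderm and 65.8% for mesoderm against hPSC, 68.1% for mesoderm and 73.9% for endoderm against ectoderm, and 59.2% for endoderm against mesoderm. In the same order it was 63.9%, 70.8%, 69.1%, 55.6% and 64.9% in the nucleus and 69.7%, 42.8%, 48.6%, 72.8% and 34.1% on chromatin. In nucleoplasm it was 79.4% for ectoderm against hPSC.

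**Figure D2:**
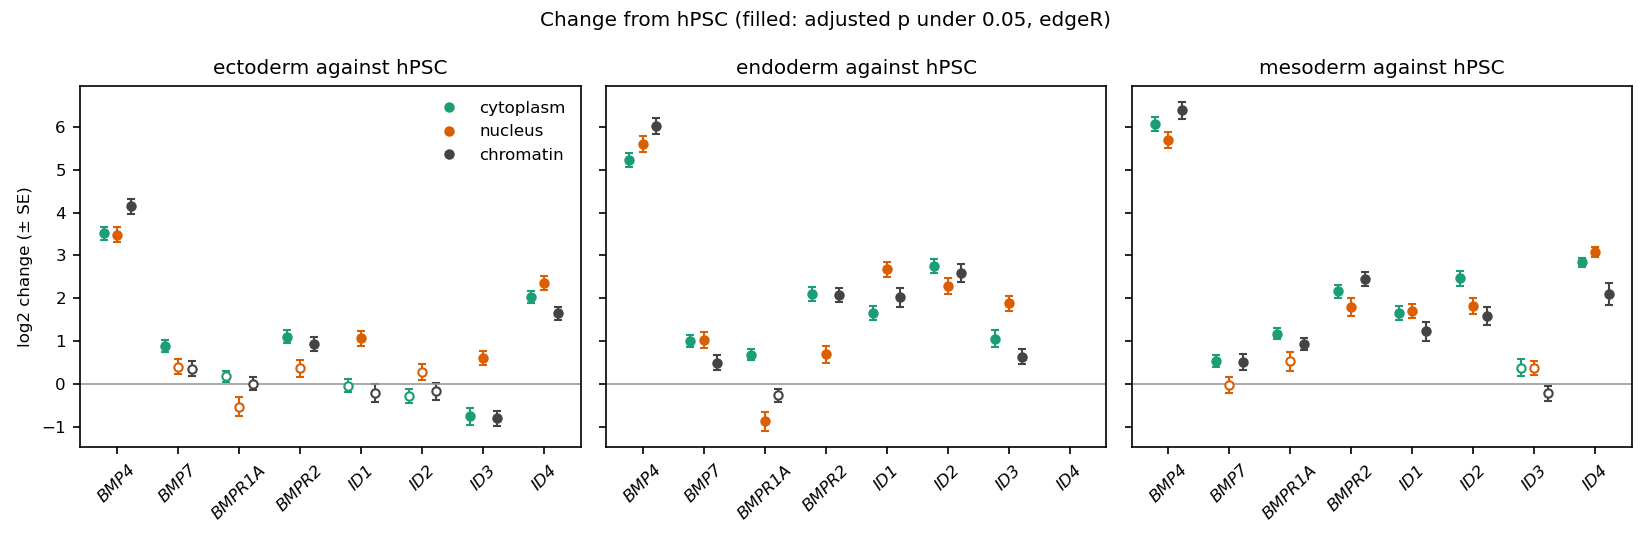
Log2 change from hPSC (edgeR, with its standard error) for 8 members in libraries labelled cytoplasm, nucleus and chromatin, in ectoderm, endoderm and mesoderm; filled points passed an adjusted p of 0.05. Among the cytoplasm points BMP4 is farthest from 0 in each culture, at 3.52, 5.24 and 6.08. Cytoplasmic ID1 lies at -0.04 in ectoderm and 1.66 in endoderm and in mesoderm.

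Of 50 further pathway genes listed, 22 were in all 4 tables and passed the filter on low counts in the cytoplasm. They held none of the 8 listed ligands, 1 of 10 other targets (MSX2) and 9 of 15 antagonists and inhibitors. A gene missing from any table could not enter, so the counts and medians below do not describe the whole pathway. In ectoderm against hPSC 14 rose and 3 fell, with a median of 0.64 (0.0075 over all genes). Over all genes 75.9% were called, 38.0% higher and 37.9% lower. NBL1, a secreted BMP antagonist, rose by 3.35 and BMPER, a BMP-binding protein, by 1.51. MSX2, a BMP target encoding a homeobox factor, rose by 3.05, from 0.662 ± 0.604 to 4.89 ± 0.550 CPM (SD, n = 3). The fitted value depends on the prior count, since hPSC held as few as 2 MSX2 counts. SKIL, a repressor of SMADs, fell by 2.57, BAMBI, a pseudoreceptor and BMP target, by 2.31, and SMAD7, the second inhibitory SMAD, by 1.60.

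In endoderm 13 of the 22 rose and 3 fell (median 0.58), where 29.6% of all genes rose and 28.6% fell. The largest rises were in MSX2 (7.45), BMPER (4.26) and BAMBI (4.02). TCF4 fell by 1.64, the co-receptor RGMA by 1.12 and SMAD4 by 0.37. The TCF4 fall missed the threshold in limma on TPM (-0.44, adjusted p = 0.0896), and the SMAD4 difference was 0.94 there. In mesoderm 16 rose and 3 fell (median 0.73), where 34.6% of all genes rose and 33.4% fell. The rises were led by MSX2 (7.68), BAMBI (4.18) and the activin and BMP antagonist FST (2.94). RGMA fell by 1.91, RGMB by 0.61 and TCF3 by 0.30. The RGMB fall missed the threshold in limma on TPM (-0.26, adjusted p = 0.275).

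Mesoderm and ectoderm differed in 18 of the 22 genes, 10 higher and 8 lower in mesoderm, with a median of 0.00051 (0.039 over all genes). Over all genes 61.2% were called, 32.4% higher and 28.7% lower. BAMBI averaged 239 ± 16.1 CPM in mesoderm and 2.77 ± 1.15 CPM in ectoderm (SD, n = 3), a difference of 6.48. MSX2 (4.63) and SMAD7 (4.35) followed. NBL1 (-2.72), RGMA (-2.61) and TCF12 (-1.19), a basic helix-loop-helix partner of ID proteins, were lower in mesoderm. Of the genes under the heading of antagonists and inhibitors, BAMBI and SMAD7 are themselves known BMP targets.

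Within a cell type, the members' counts were compared between the labelled cytoplasm and nucleus. In hPSC 7 of 8 members were called (65.4% of all genes): ID1, ID2, ID3 and ID4 were higher in cytoplasm, by 0.92, 1.13, 1.18 and 0.94, and BMP7, BMPR1A and BMPR2 lower, by -1.34, -0.94 and -1.04. Each kept its direction and call with total counts and in limma on TPM. For ID3 the libraries read 274, 147 and 148 CPM in cytoplasm and 89.1, 72.5 and 79.3 CPM in nucleus, and for BMP7 15.8, 16.2 and 21.4 CPM against 39.5, 41.3 and 47.6 CPM. Neither pair of groups overlapped.

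In ectoderm 9 of 10 members were called (53.7% of all genes), and 4 with total counts. Those 4, called in limma on TPM too, were BMP2 (-1.22), BMP7 (-0.98), ID2 (0.41) and ID4 (0.54). The calls of BMPR1A (-0.36), BMPR2 (-0.42), BMP4 (-0.43), SMAD6 (-0.67) and ID3 (-0.33) were lost under both. The ID3 value was 0.02 with total counts and the BMPR2 value 0.03 in limma on TPM. Leaving out 1 library ended the BMPR1A call in 5 of 6 cases, that of BMPR2 in 3, that of ID3 in 2 and that of BMP4 in 1. Total counts moved the median of all genes by 0.35 and the share of calls higher in cytoplasm from 50.7% to 76.4%.

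In endoderm 6 of 9 were called (69.7% of all genes). ID2 was higher in cytoplasm by 1.49, at 365, 302 and 271 CPM against 44.4, 73.0 and 92.5 CPM. SMAD6 (-1.67), BMP7 (-1.47) and BMP2 (-1.08) were lower, with smaller differences under total counts (-1.0, -0.71 and -0.35). BMP4 (-0.80) was lower too, but differed by -0.08 and was not called under total counts. BMPR1A (0.54) lost its call without endoderm nucleus replicate 1 (0.30) or without endoderm cytoplasm replicate 1 or 2. ID1 differed by -0.21 (edgeR adjusted p = 0.267), and by 0.51 with total counts (adjusted p = 0.00668). Here total counts moved the median of all genes by 0.70, and the share of calls higher in cytoplasm from 49.2% to 71.4%.

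In mesoderm 6 of 10 were called (63.2% of all genes). ID2 (1.82), ID3 (1.25), ID1 (0.94) and ID4 (0.76) were higher in the labelled cytoplasm, and BMP7 (-0.71) and BMPR2 (-0.61) lower. In limma on TPM, which moved the median of all genes by -0.82, ID1 and ID4 turned to -0.16 and -0.38, and ID3 to 0.06. ID2, higher in the labelled cytoplasm in all 4 cell types, read 235, 241 and 229 CPM in mesoderm cytoplasm and 62.7, 76.8 and 75.6 CPM in the nucleus. Of the other pathway genes 15 of 25 were called in hPSC (3 higher in cytoplasm), 18 of 36 in ectoderm (8 higher), 30 of 36 in endoderm (10 higher) and 18 of 37 in mesoderm (11 higher). In the same order, 65.4%, 53.7%, 69.7% and 63.2% of all genes were called. The counts of higher genes were not set against all genes.

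**Figure D3:**
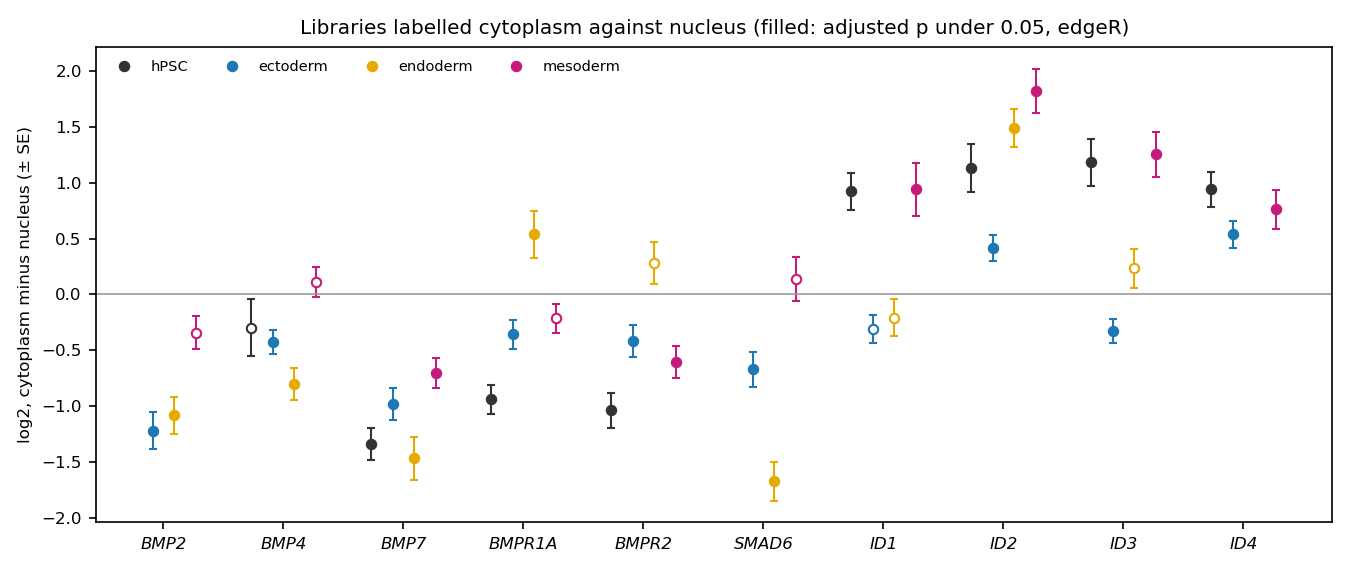
Log2 difference between the libraries labelled cytoplasm and nucleus (edgeR, with its standard error) for each member in the 4 cell types; filled points passed an adjusted p of 0.05. ID2 is above 0 in all 4 cell types, from 0.41 to 1.82, and BMP7 below 0 in all 4, from -1.47 to -0.71.

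Whether the cytoplasm-minus-nucleus difference was itself different from that in hPSC was tested with an interaction term in edgeR for the 7 members that passed the filter on low counts there. The term was called for 5 members in ectoderm (51.9% of all genes), 4 in endoderm (37.9%) and 3 in mesoderm (25.6%). Against hPSC, the ectoderm term was lower for ID3 (-1.31) and ID1 (-1.03) and higher for BMPR2 (0.80), BMPR1A (0.76) and BMP7 (0.55). In endoderm it was lower for ID1 (-1.05) and ID3 (-0.86) and higher for BMPR1A (1.53) and BMPR2 (1.38). In mesoderm it was higher for BMPR1A (0.78), ID2 (0.76) and BMP7 (0.69), and none of these 3 calls held with total counts or in limma on TPM. The endoderm call of ID3 was lost under both as well, at -0.29 and -0.095, and that of ID1 was lost in limma on TPM at -0.34. The ectoderm call of BMPR1A was lost with total counts (0.84, edgeR adjusted p = 0.0753). With a replicate block the ectoderm BMP7 call (edgeR adjusted p = 0.0508) and the mesoderm BMPR1A call (edgeR adjusted p = 0.056) were lost. Replicates with the same number correlated at 0.27, 0.18 and 0.11 between hPSC cytoplasm and nucleus, which enter every such term. Total counts moved the median of all such terms by 0.51 in endoderm and -0.34 in mesoderm, and the share of calls that were higher from 51.8% to 89.9% and from 73.1% to 36.9%.

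Chromatin was compared with nucleoplasm where both had 3 libraries. In hPSC 1 of 8 members was called (30.4% of all genes), BMPR1A, at 123, 119 and 94.6 CPM on chromatin against 146, 139 and 151 CPM in nucleoplasm (-0.61, edgeR adjusted p = 0.00378). That call was lost in limma on TPM (-0.09). In ectoderm BMP7 (-0.57), ID2 (-0.57), ID3 (-0.56) and BMP4 (-0.61) were called (44.1% of all genes). With total counts none of the 4 was, and in limma on TPM all 4 were above 0. The BMP7 value was -0.33 without ectoderm chromatin replicate 2.

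In endoderm 7 of 9 were called (53.4% of all genes). SMAD6 (0.84) and ID1 (0.54) were higher on chromatin, also with total counts (1.43 and 1.12). The ID1 call was lost without endoderm nucleoplasm replicate 1 or endoderm chromatin replicate 1 (adjusted p up to 0.0677). BMP4 (-1.43) and BMP7 (-1.30) were lower under both scalings, while the lower values of BMPR1A (-1.08), BMP2 (-0.85) and BMPR2 (-0.77) were not called with total counts. Total counts moved the share of calls higher on chromatin to 86.5% in hPSC, 71.0% in ectoderm and 73.8% in endoderm.

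Isoforms were quantified within each assembly, and ID1 is described first. Its gene lies at chr20:31605283-31606515 on the plus strand (GRCh38). The single intron, chr20:31605814-31606052, has 239 bases, and the hPSC, endoderm and mesoderm tables hold both the spliced transcript ENST00000376112 (994 bases) and ENST00000376105, a single exon of 1233 bases that keeps the intron. The annotated coding sequence of the second ends within the intron. The sequences are shown across the end of exon 1 (last 30 bases in lower case, chr20:31605784-31605813), with capitals for what follows: the first 30 bases of exon 2 (chr20:31606053-31606082) or the intron bases up to the end of the annotated coding sequence (chr20:31605814-31605834).
ID1 spliced: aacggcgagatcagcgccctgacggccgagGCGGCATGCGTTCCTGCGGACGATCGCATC
ID1 intron retained: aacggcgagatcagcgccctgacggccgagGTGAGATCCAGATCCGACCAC
The kit is not stated to mark strand, and a single-exon transcript of this kind cannot be told from unspliced precursor RNA in these tables.

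In hPSC the intron-keeping transcript took 5.94%, 5.61% and 3.91% of ID1 counts in the 3 cytoplasm libraries, 23.9%, 34.5% and 24.5% in the nucleus, a mean of 13.7% in nucleoplasm, and 20.6%, 18.3% and 27.5% on chromatin. In endoderm it took 3.56%, 3.73% and 4.09% in cytoplasm, 21.2%, 29.3% and 32.1% in the nucleus, a mean of 29.3% in nucleoplasm, and 48.0%, 46.2% and 47.3% on chromatin. In mesoderm it took 7.30%, 5.57% and 6.12% in cytoplasm, 31.9%, 30.3% and 22.7% in the nucleus, 16.6% in the nucleoplasm library, and 37.7%, 43.3% and 21% on chromatin. Every cytoplasm library was below every library of the other fractions. The transcript was not assembled in the ectoderm table. The comparison was chosen after these values were seen. Within cell types, the share was 22.7 percentage points higher in nucleus than cytoplasm, and 29.4 points higher on chromatin than in cytoplasm (exact permutation tests within cell type, two-sided, p = 0.00025 each, the smallest these designs can give, BH-adjusted over 4 tests 0.0005). Chromatin was 13.1 points above nucleoplasm in hPSC and endoderm (exact permutation p = 0.005, the smallest possible, BH-adjusted 0.00667). Chromatin and nucleus differed by 6.64 points (exact permutation p = 0.111), a mean over cell types that did not share a direction. The chromatin mean was above the nucleus mean in endoderm, where the libraries did not overlap, and in mesoderm, where they did. It was below the nucleus mean in hPSC, where the libraries overlapped too. Leaving out single libraries moved the mean difference over cell types between 5.09 and 8.80 points. The highest value came without mesoderm chromatin replicate 3 (exact permutation p = 0.0315, not adjusted for the number of refits), the mesoderm chromatin library with the lowest share. It also had the highest mitochondrial share of the mesoderm chromatin libraries (5.53%), whose part was not tested.

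**Figure D4:**
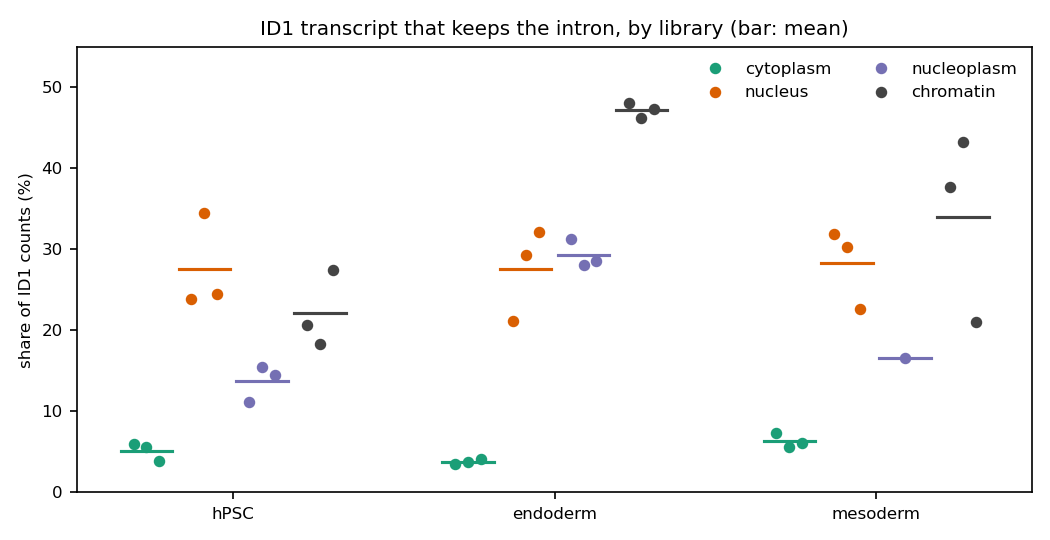
Share of ID1 counts (percent) assigned to the transcript that keeps the intron, by cell type and labelled fraction; points are libraries and short lines are means. The cytoplasm means lie between 3.79% and 6.33% and the nucleus means between 27.5% and 28.3%.

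The 2 transcripts also moved apart in the isoform tests. The intron-keeping one was lower in the labelled cytoplasm than nucleus in hPSC (-1.42, edgeR adjusted p = 0.00422) and endoderm (-2.82, edgeR adjusted p = 7.32e-07), while in mesoderm the difference was -0.98 (edgeR adjusted p = 0.0589). The spliced one was higher by 1.34 in hPSC and 1.56 in mesoderm, and by 0.42 in endoderm (edgeR adjusted p = 0.063). Over all members 9 of 14 isoforms were called in hPSC (39.7% of all isoforms), 6 of 27 in ectoderm (13.7%), 9 of 19 in endoderm (42.1%) and 13 of 32 in mesoderm (32.0%).

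Other members had isoforms whose share differed by fraction, given here as values with no test of the shares. In endoderm the BMP4 transcript ENST00000245451.9 held 69.4 ± 3.23% of BMP4 counts in cytoplasm and 39.3 ± 4.73% on chromatin (SD, n = 3), and in mesoderm 73.5 ± 5.42% and 39.7 ± 12.9%. ENST00000558984.1 held 2.89 ± 2.58% in endoderm cytoplasm and 40.0 ± 18.9% on chromatin, where its libraries ranged from 19.3% to 56.5%. In hPSC ENST00000559087.5 held 82.2% of the few BMP4 counts in cytoplasm. In ectoderm BMP7 transcript ENST00000476877.1 held 4.31 ± 0.723% in cytoplasm and 24.1 ± 4.03% on chromatin. None of the 5 SMAD6 isoforms of the endoderm table carries an Ensembl transcript identifier, and 2 such isoforms of mesoderm SMAD6 held 13.4% and 28.5% of counts on chromatin against 0.258% and 0.257% in cytoplasm. In the isoform tests of cytoplasm against nucleus, these 2 were called (-4.49 and -4.94), as was ENST00000245451.9 in mesoderm (0.63). The BMP4 isoforms named in endoderm and hPSC and the BMP7 isoform named in ectoderm were not (edgeR adjusted p = 0.303 to 0.750).

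Across the 16 means of cell type and fraction, the genes with the most similar profiles were AMOT (Pearson r of log2(CPM + 1) 0.97), RASGEF1B (0.95) and MYOF (0.94) for BMP4, and MYOF (0.92), PATJ (0.91) and AMOT (0.91) for BMPR2. For ID1 they were MSX2 (0.93), NDRG1 (0.93) and RNPEPL1 (0.93), for ID2 ERRFI1 (0.95), RCAN3 (0.93) and FAM114A1 (0.91), and for ID3 RHOC (0.94), CDC42EP1 (0.94) and ABHD4 (0.93). BMP7 was nearest to HLA-E (0.92), CTSB (0.92) and TBL2 (0.91), and BMPR1A to AHR (0.88), UGCG (0.84) and SLC38A1 (0.84). Among pairs of members, r ran from -0.29 between BMPR1A and ID3 to 0.90 between ID1 and ID2. It was 0.83 between BMP4 and BMPR2, 0.81 between ID1 and ID3 and 0.79 between BMP4 and ID1. Other pairs had low values, such as 0.12 between BMPR2 and ID3 and 0.05 between BMP7 and ID3. BMPR1A also had r below 0 with BMP7 (-0.16) and ID1 (-0.02). These are descriptions over 9180 genes whose 16 points share libraries and cell types.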

How the data were processed

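Transcripts were quantified by the authors in 46 libraries, per the file headers, as 1 table of counts and TPM for each of the 4 cell types, each with its own assembly. The deposited counts were taken as whole reads per transcript. The deposited TPM values, scaled by the authors for length and total, were used to compare genes per length. RSEM, STAR and hg38 are named in the submitters' processing notes, with no role or version. The library kit is not stated to mark strand.

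Counts were summed per Ensembl gene and scaled to CPM of the library total. Levels between cell types were compared over genes in all 4 tables, or in both of 2 tables, since a gene with no row was not read as 0. Changes were tested with edgeR 4.0.16 (R 4.3.3; TMM, filterByExpr with a minimum count of 10, quasi-likelihood F test, two-sided, Benjamini-Hochberg over all genes, threshold 0.05). Alternatives were DESeq2 1.42.0, its size factors in edgeR, total counts, no filter, a replicate block, limma 3.58.1 on log2(TPM + 1), transcripts with an Ensembl identifier only, the 2 groups compared only, the tables of a combined assembly (ectoderm alone), and leaving out each replicate. SE is the log2 difference over the square root of F.

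Columns coded Nei were read as nucleus, and 1 column that matches no sample was not used. The replicate number of the mesoderm nucleoplasm library was not used. In simulated ectoderm and hPSC cytoplasm data of 10669 genes, 47.8% of 67 genes changed 1.5-fold, 97.0% of 67 changed 2-fold and 100% of 66 changed 4-fold were recovered. The simulation gave every gene the same fixed spread and changed only this small set of genes, none with small counts. These rates are therefore not the share of real changes that the fits would find, least of all for genes with small counts.

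All members are named. Of the other listed pathway genes, up to 3 called rises and 3 called falls with the largest size were named per cytoplasm comparison. Isoforms with at least 10% of a member's counts could be named, and for likeness the 3 genes with the highest r among those averaging at least 10 CPM. Members and lists were chosen with earlier results of these data known. Gene positions come from GENCODE 29 (GRCh38), promoters from RefSeq (GRCh38.p14), in which 8 members were found.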

Additional observations from a re-analysis of the deposited data

Results flagged for a closer look

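For 12 results the difference between the labelled cytoplasm and nucleus was itself different from that in hPSC, by an interaction term in edgeR (log2 values, adjusted over all genes). Over all genes, such terms were called for 51.9% in the ectoderm comparison, 37.9% in the endoderm one and 25.6% in the mesoderm one. The mitochondrial shares given above, higher in the labelled nucleus in hPSC, ectoderm and endoderm and lower in mesoderm, moved with these groups, and their part in the results was not tested.

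The cytoplasm-minus-nucleus difference of ID1 was below that in hPSC in ectoderm (-1.03, SE 0.22, edgeR adjusted p = 0.00067) and endoderm (-1.05, SE 0.22, edgeR adjusted p = 0.00122). That of ID3 was likewise below hPSC in ectoderm (-1.31, SE 0.27, edgeR adjusted p = 0.000459) and endoderm (-0.86, SE 0.27, edgeR adjusted p = 0.0166). The endoderm ID3 value was -0.49 without hPSC cytoplasm replicate 1, and its call was also lost without endoderm nucleus replicate 1 or endoderm cytoplasm replicate 2. That of ID2 was above hPSC in mesoderm (0.76, SE 0.25, edgeR adjusted p = 0.0296), a call lost in 6 of 12 fits with 1 library left out.

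For BMPR1A the difference was above that in hPSC in endoderm (1.53, SE 0.28, edgeR adjusted p = 0.000409), ectoderm (0.76, SE 0.28, edgeR adjusted p = 0.0268) and mesoderm (0.78, SE 0.28, edgeR adjusted p = 0.0432). The last 2 calls were lost in 4 and 10 of 12 fits with 1 library left out. For BMPR2 it was above hPSC in endoderm (1.38, SE 0.27, edgeR adjusted p = 0.000688) and ectoderm (0.80, SE 0.27, edgeR adjusted p = 0.0173), the ectoderm call being lost without hPSC nucleus replicate 2 or ectoderm nucleus replicate 2. For BMP7 it was above hPSC in ectoderm (0.55, SE 0.22, edgeR adjusted p = 0.0449) and mesoderm (0.69, SE 0.23, edgeR adjusted p = 0.0287), calls lost in 9 and 5 of 12 such fits.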

How the results depend on the processing

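Of 183 called changes of members, isoforms and named genes, 161 kept their call with any 1 library left out and 22 lost it at least once. DESeq2 kept 179 of 179, its size factors in edgeR 178 of 179, no filter 182 of 183, and total counts 160 of 183 with 2 reversed. The limma fit on TPM kept 143 of 179 with 12 reversed, and Ensembl transcripts alone 144 of 155 with 1 reversed. The fit on the 2 groups compared kept 136 of 142, and the combined assembly 11 of 13. In 41 of 42 pairs of groups, the correlations between libraries with the same replicate number were not all over 0.1. That limit was a choice and many of these pairs were of different cell types, so the check cannot show that libraries were unpaired. Between hPSC cytoplasm and nucleus all 3 correlations were over 0.1, and in 2 pairs of groups every library correlated best with its own number. A replicate block kept 180 of 183 calls and moved the count of ectoderm isoforms from 6 to 3.

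Some differences changed sign. In ectoderm against hPSC cytoplasm ID1 became 0.058 with total counts, 0.34 in limma on TPM and 0.14 with Ensembl transcripts (from -0.15 to 0.17 over libraries left out), ID2 0.044 in limma, and BMPR1A -0.43 with Ensembl transcripts. In limma on TPM, SMAD4 in endoderm cytoplasm became 0.94, BMPR2 in endoderm nucleus -0.37 and BMP7 between mesoderm and ectoderm nucleus 0.70. Also in limma, ectoderm chromatin against nucleoplasm became 0.010 for BMP7, 0.18 for ID2, 0.19 for ID3 and 0.14 for BMP4. For cytoplasm against nucleus, limma gave BMPR2 0.034 in ectoderm, ID1 0.20 in endoderm, and ID1 -0.16 and ID4 -0.38 in mesoderm. The mesoderm interaction terms there were -0.13 for BMP7 and -0.0022 for ID2. With total counts, BMPR1A in endoderm nucleoplasm became -0.43, ectoderm ID3 (cytoplasm against nucleus) 0.018, endoderm ID1 0.51 and the spliced ID1 isoform in ectoderm 0.05. BMPR1A in mesoderm chromatin became -0.059 with Ensembl transcripts.

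Counts of called members also moved. Against hPSC in the nucleus, ectoderm went from 3 to 5 in the fit on 2 groups and mesoderm from 4 to 7 in limma. Cytoplasm against nucleus in ectoderm went from 9 to 4 with total counts and to 4 in limma. Chromatin against nucleoplasm went in hPSC from 1 to 2 with total counts and 4 in limma, and in ectoderm from 4 to 0 with total counts and 1 with Ensembl transcripts. The mesoderm interaction count went from 3 to 0 with total counts. With 1 library left out, the interaction counts ran from 2 to 6 in ectoderm and 0 to 3 in mesoderm, and the ectoderm isoform count from 2 to 6. The ID1 intron share on chromatin over nucleus ran from 5.09 to 8.80 points, being 7.79 (exact permutation p = 0.049) without hPSC nucleus replicate 2 and 8.80 (exact permutation p = 0.0315) without mesoderm chromatin replicate 3. These p-values were not adjusted for the number of refits. The cause was not tested in any of these cases. Small counts limit the values of BMP4 and MSX2 in hPSC.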
